A study of Mus musculus with 8 samples.

Results

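Digestive enzymes of the exocrine pancreas were followed as 10 genes in liver RNA of Amacr-/- and wild-type mice, to judge how far pancreas transcripts were present in the liver samples. The genes were Clps, Ctrb1, Pnlip, Cpa1, Cpb1, Cel, Cela1, Cela2a, Cela3b and Prss2, chosen by symbol as secreted products of pancreatic acinar cells. All 10 had a probe set, out of 16492 probe sets on the array that were not array controls. The list was drawn up with values of these same arrays in view, so the values of its genes in each array and their differences between genotypes are given as a description, without a test.

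The study held 8 arrays of total liver RNA, 4 from Amacr-/- mice and 4 from wild-type mice, each a biological replicate per the study's design text. Both groups were male C57BL/6 mice with an age of 3 to 3.5 months, and the genotype was the only labelled difference. Amacr encodes alpha-methylacyl-CoA racemase, which acts on bile acid intermediates and branched-chain fatty acids. The sources used here did not say how the allele was made or how the livers were dissected. Values are log2 signals from RMA, which brings the arrays to a like distribution and gives 1 value per probe set. A difference of 1 on this scale is a doubling of signal.

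Acinar cells make up most of the pancreas and secrete digestive enzymes and enzyme precursors into the gut, among them trypsins, chymotrypsins, elastases, carboxypeptidases and lipases. These genes are transcribed in acinar cells under a factor complex named PTF1, built on Ptf1a and Rbpjl, and are textbook markers of the cell type. The pancreas lies beside the bile duct and the lobes of the liver, and its transcripts for these enzymes are very abundant. One of the enzymes, the carboxyl ester lipase encoded by Cel, needs bile salts to act.

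The 10 genes lie on 8 chromosomes, and upstream sequence was available for 9 of them. RefSeq promoter windows of the mouse build GRCm38.p6 were cut to the 250 bases before the annotated start and searched on both strands for 3 motifs: CACCTG (an E-box of the PTF1 type), TTTCCC (the TC-box that PTF1 also binds) and TATAAA (a core promoter box). CACCTG was found before 6 of the 9 genes and in 17.2% of all 32851 windows of that length. TTTCCC was found before 6 genes and in 21.9% of all windows, TATAAA before 3 genes and in 12.4%. CACCTG together with TTTCCC stood before 4 genes and in 3.61% of all windows. A match describes letters and not a bound site.

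The 4 windows below are shown because they contrast the elastase gene Cela1, whose signal did not follow the others, with 3 genes whose signals did. Capitals mark the 3 motifs in either orientation, and each sequence reads 5′ to 3′ on the strand of the gene. The window of Cel is chr2:28563404-28563653 on the minus strand, that of Prss2 chr6:41521526-41521775 on the plus strand, that of Cela3b chr4:137430521-137430770 on the minus strand and that of Cela1 chr15:100687921-100688170 on the minus strand.
Cel: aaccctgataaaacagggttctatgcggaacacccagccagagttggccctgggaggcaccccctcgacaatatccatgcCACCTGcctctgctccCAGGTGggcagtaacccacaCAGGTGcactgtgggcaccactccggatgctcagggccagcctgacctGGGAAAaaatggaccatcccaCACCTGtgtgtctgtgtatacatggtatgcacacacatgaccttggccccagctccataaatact
Prss2: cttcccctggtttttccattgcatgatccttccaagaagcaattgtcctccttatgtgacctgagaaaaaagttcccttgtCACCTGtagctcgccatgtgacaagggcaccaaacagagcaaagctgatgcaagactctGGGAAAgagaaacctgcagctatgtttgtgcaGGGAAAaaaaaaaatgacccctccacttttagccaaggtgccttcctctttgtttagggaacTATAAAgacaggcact
Cela3b: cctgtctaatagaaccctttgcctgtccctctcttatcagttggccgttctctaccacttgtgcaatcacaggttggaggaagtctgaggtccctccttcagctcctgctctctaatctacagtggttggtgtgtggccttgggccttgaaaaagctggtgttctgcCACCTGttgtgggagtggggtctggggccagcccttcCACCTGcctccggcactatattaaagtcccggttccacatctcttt
Cela1: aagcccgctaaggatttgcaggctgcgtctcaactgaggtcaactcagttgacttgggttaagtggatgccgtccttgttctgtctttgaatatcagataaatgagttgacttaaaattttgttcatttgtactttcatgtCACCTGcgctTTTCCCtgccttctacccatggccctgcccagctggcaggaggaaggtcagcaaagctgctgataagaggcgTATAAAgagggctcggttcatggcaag
Cel held CACCTG 4 times and TTTCCC once, Prss2 held all 3 motifs, and Cela3b held CACCTG 2 times and neither of the others. Cela1 also held all 3 motifs, so the presence of these letters did not separate it from the other enzymes. Of the windows not shown, those of Cpb1 and Cela2a held CACCTG, and those of Ctrb1, Pnlip and Cpa1 did not. The window of Pnlip held no TTTCCC either.

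Array medians lay between 6.62 and 6.66, and the arrays went with their labels: Amacr was 5.40 ± 0.13 in Amacr-/- livers and 11.96 ± 0.18 in wild-type livers (SD, n = 4 each; log2 difference -6.55, limma adjusted p = 4.91e-09). Alb (albumin), the defining transcript of hepatocytes, was 14.94 to 15.00 in Amacr-/- arrays and 14.96 to 15.05 in wild-type arrays. The quality weight that limma gave Amacr-/- replicate 2 was 0.300, below the 0.935 to 1.753 of the other arrays. In the fit of all probe sets, 19 of 16492 passed an adjusted p of 0.05, and 2 to 39 when a single array was left out, 8 of them without Amacr-/- replicate 1.

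In a single liver, Amacr-/- replicate 1, 9 of the 10 enzymes stood above every other array by at least 1 log2 unit. The margin over the highest of the other 7 arrays ran from 1.18 for Cel to 3.96 for Clps, with a median of 1.86. Relative to the mean of the other 7 arrays, the signal in that liver was 3.22-fold to 18.5-fold higher. The exception was Cela1. In the other 7 arrays the 9 enzymes were at 4.04 to 6.19, below every array median. How much of that low signal was background is not known, so the folds may not be ratios of transcript. In whole liver RNA, a change in the number of cells of a type and a change in RNA per cell cannot be told apart.

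**Figure D1:**
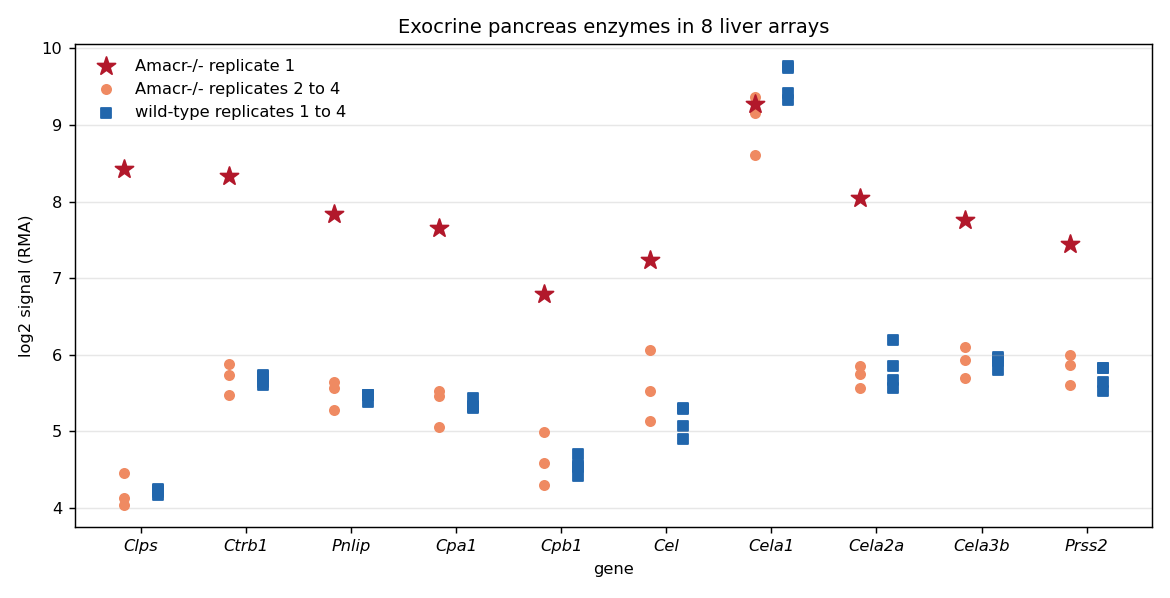
Log2 RMA signal (vertical axis) of the 10 enzymes (horizontal axis) in each liver array; the star is Amacr-/- replicate 1, circles are Amacr-/- replicates 2 to 4 and squares the 4 wild-type replicates. The star lies at least 1.18 above all other points for 9 genes, and for Cela1, at 9.27, lies among them.

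Among the lipid-digesting proteins, colipase showed the widest gap. Colipase, encoded by Clps, anchors pancreatic lipase to fat droplets coated with bile salts. Clps was 8.42, 4.04, 4.46 and 4.13 in Amacr-/- replicates 1 to 4, against 4.25, 4.24, 4.17 and 4.21 in wild-type replicates 1 to 4. Amacr-/- replicate 1 was thus 18.5-fold above the mean of the others, whereas the 4 wild-type arrays spanned 0.08. The groups overlapped, since Amacr-/- replicates 2 and 4 lay below all wild-type arrays.

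Pnlip encodes pancreatic triglyceride lipase, the enzyme that colipase serves. Its values were 7.84, 5.28, 5.57 and 5.65 in Amacr-/- replicates 1 to 4 and 5.47, 5.48, 5.38 and 5.48 in wild-type replicates 1 to 4. Again only replicate 1 was far from the rest, by 2.19 over the next array. Replicates 3 and 4 lay slightly above all wild-type arrays and replicate 2 below them.

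Cel, the bile-salt-dependent lipase, had the smallest gap of the 9 genes. It was 7.24, 5.14, 6.06 and 5.53 in Amacr-/- replicates 1 to 4, against 5.07, 4.90, 5.29 and 5.31 in wild-type replicates 1 to 4. Amacr-/- replicate 1 was highest, but replicates 3 and 4 also lay above every wild-type array, and replicate 2 lay within the wild-type range. Replicates 3 and 4 were above every wild-type array for Pnlip, Cpa1 and Prss2 as well, by less. Over all probe sets, replicate 3 was the highest array for 19.4% and replicate 4 for 15.7%. Nothing is therefore read from this order, here or for the genes below. The margin of Cel was 1.18, and it had the largest SD of the 9 over the other 7 arrays, 0.379.

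Of the serine proteases, chymotrypsinogen B1, encoded by Ctrb1, had the highest margin. Ctrb1 was 8.33, 5.47, 5.88 and 5.73 in Amacr-/- replicates 1 to 4 and 5.72, 5.60, 5.64 and 5.73 in wild-type replicates 1 to 4. Its value in Amacr-/- replicate 1 was 6.27-fold above the mean of the other arrays, which spread with an SD of only 0.128.

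Prss2, a trypsinogen, was 7.44, 5.60, 6.00 and 5.87 in Amacr-/- replicates 1 to 4 and 5.53, 5.64, 5.82 and 5.82 in wild-type replicates 1 to 4. It had the lowest fold over the mean of the others, 3.22. Mouse trypsin genes form a family of close copies, and probe sequences were not used here, so how far this signal is shared among them is uncertain.

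The elastases split. Cela2a was 8.05, 5.75, 5.85 and 5.56 in Amacr-/- replicates 1 to 4, against 5.67, 5.57, 6.19 and 5.85 in wild-type replicates 1 to 4. Cela3b was 7.76, 5.69, 6.10 and 5.93 in Amacr-/- replicates 1 to 4, against 5.92, 5.80, 5.94 and 5.97 in wild-type replicates 1 to 4. Both were highest in Amacr-/- replicate 1, by 1.86 and 1.66 over the next array, and for both the other Amacr-/- arrays overlapped with wild type.

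Cela1 did not show that pattern. It was 9.27, 8.61, 9.15 and 9.36 in Amacr-/- replicates 1 to 4 and 9.32, 9.74, 9.77 and 9.42 in wild-type replicates 1 to 4. Amacr-/- replicate 1 lay 0.50 below the highest array and inside the range of the others, and the lowest array was Amacr-/- replicate 2. Amacr-/- arrays averaged 9.10 ± 0.34 and wild-type arrays 9.56 ± 0.23 (SD, n = 4 each), with overlap at replicate 4 of Amacr-/- and replicate 1 of wild type. Outside Amacr-/- replicate 1, Cela1 was at 8.61 to 9.77, whereas no value of the other 9 enzymes exceeded 6.19. The same added amount of signal makes a smaller log2 step at a higher level. Cela1 in Amacr-/- replicate 1 differed from the mean of the other arrays by -0.069, where the SD of those arrays was 0.392. Whether an addition like that of the other enzymes would have been visible for Cela1 was not tested.

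The carboxypeptidases, which trim the cut ends left by trypsin and the elastases, followed the majority. Cpa1 was 7.66, 5.05, 5.52 and 5.46 in Amacr-/- replicates 1 to 4 and 5.30, 5.32, 5.33 and 5.43 in wild-type replicates 1 to 4. Cpb1 was 6.79, 4.30, 4.58 and 4.99 in Amacr-/- replicates 1 to 4 and 4.56, 4.53, 4.70 and 4.42 in wild-type replicates 1 to 4. Replicate 1 was 4.98-fold above the mean of the other arrays for Cpa1 and 4.62-fold for Cpb1, and replicate 2 was the lowest of all arrays for both.

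Outside Amacr-/- replicate 1, the SD of the 9 enzymes over the other 7 arrays ran from 0.120 to 0.379, beside a median of 0.146 over all probe sets. It was above that median for Cpa1, Prss2, Cela2a, Cpb1 and Cel, and below it for Pnlip, Ctrb1, Clps and Cela3b. The second-highest array was Amacr-/- replicate 3 for 6 of the 9, replicate 4 for 2 and wild-type replicate 3 for 1. The lowest was Amacr-/- replicate 2 for 6 of the 9. These 2 arrays also differed over all probe sets: replicate 3 was the highest array for 19.4% of them, and replicate 2 the lowest for 24.5%. The part of this general drift in the smaller differences between the enzymes was not tested.

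Across the 8 arrays, each of the 9 enzymes followed the mean of the other members with Pearson's r from 0.916 for Cel to 0.998 for Cpa1, and Cela1 with r = -0.03. These values come from the choice of genes and from 1 high array, and the arrays are shared. Without Amacr-/- replicate 1, r over 7 arrays ran from 0.163 for Cela2a to 0.918 for Cpa1, and was 0.250 for Cela1.

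Except for Cela1, and in part for Cel, the comparison of genotypes rested on Amacr-/- replicate 1. With all 8 arrays, the difference of means was 1.04 for Clps, 0.85 for Cel, 0.68 for Ctrb1, 0.63 for Pnlip, 0.61 for Cpb1, 0.58 for Cpa1, 0.53 for Prss2, 0.48 for Cela2a, 0.46 for Cela3b and -0.47 for Cela1. For Clps the means were 5.26 ± 2.11 in Amacr-/- and 4.22 ± 0.04 in wild-type livers (SD, n = 4 each), so the difference was smaller than the spread among Amacr-/- livers. The same held for each of the 9 enzymes, whose SD among Amacr-/- livers ran from 0.825 for Prss2 to that of Clps.

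The median difference over the 10 genes was 0.595, beside 0.02 over all probe sets. Without Amacr-/- replicate 1 it was 0.010, and 4 of the 10 differences changed sign. These 4 became -0.008 for Clps, -0.002 for Cpa1, -0.001 for Cela3b and -0.10 for Cela2a, so most of them came close to 0 rather than reversing. The remaining 3 Amacr-/- arrays differed from wild type by 0.02 for Ctrb1, 0.05 for Pnlip, 0.07 for Cpb1 and 0.12 for Prss2. For Cel the difference without that array was 0.43, the mean being 5.58 ± 0.46 (SD, n = 3) in the other Amacr-/- livers and 5.14 ± 0.19 (SD, n = 4) in wild-type livers, and for Cela1 it was -0.52.

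**Figure D2:**
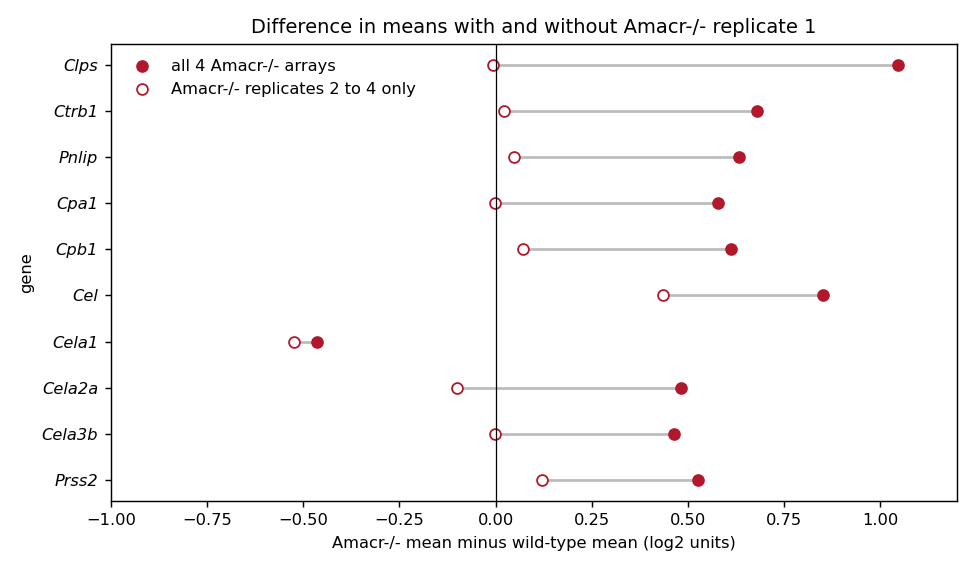
Amacr-/- mean minus wild-type mean in log2 units (horizontal axis) for each enzyme (vertical axis), with all 4 Amacr-/- arrays (filled) and with Amacr-/- replicates 2 to 4 only (open). Without replicate 1 the points of 8 enzymes lie between -0.10 and 0.12, that of Cel at 0.43 and that of Cela1 at -0.52.

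In the limma fit of all probe sets, 0 of the 10 enzymes passed an adjusted p of 0.05, where 0.115% of all probe sets did (0.0728% higher and 0.0424% lower in Amacr-/- arrays). An unadjusted p under 0.05 was found for 1 of the 10, Cela1, and for 11.3% of all probe sets. The genotype groups did not overlap for 0 of the 10, where 3.42% of all probe sets lay wholly higher and 3.25% wholly lower in Amacr-/- arrays. Because the list was chosen with this contrast in view, nothing is read from these counts.

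In Amacr-/- replicate 1, 17 of 16492 probe sets (0.103%) lay at least 1 log2 unit above all other arrays, and 9 of them were listed enzymes. The same count was 111 (0.673%), 15 (0.091%) and 6 (0.0364%) in Amacr-/- replicates 2, 3 and 4, with 0 of the 10 enzymes among them. It was 3 (0.0182%), 5 (0.0303%), 0 and 45 (0.273%) in wild-type replicates 1 to 4, again with 0 of the 10. Of the 17, 7 others belonged to a further list of exocrine pancreas genes, also chosen with earlier results of these data known. The remaining 1, Cav1, belonged to neither list. The listed enzymes were thus 52.9% of the 17 probe sets, and the 17 held 90.0% of the listed enzymes, which were chosen with these arrays in view. At a margin of 0.5, chosen after seeing the data, the same 9 enzymes stood among 26 probe sets. Just outside the margin lay Clec2h at 0.90, and just inside it Dmbt1 at 1.09, while Cel, at 1.18, was the nearest of the enzymes.

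**Figure D3:**
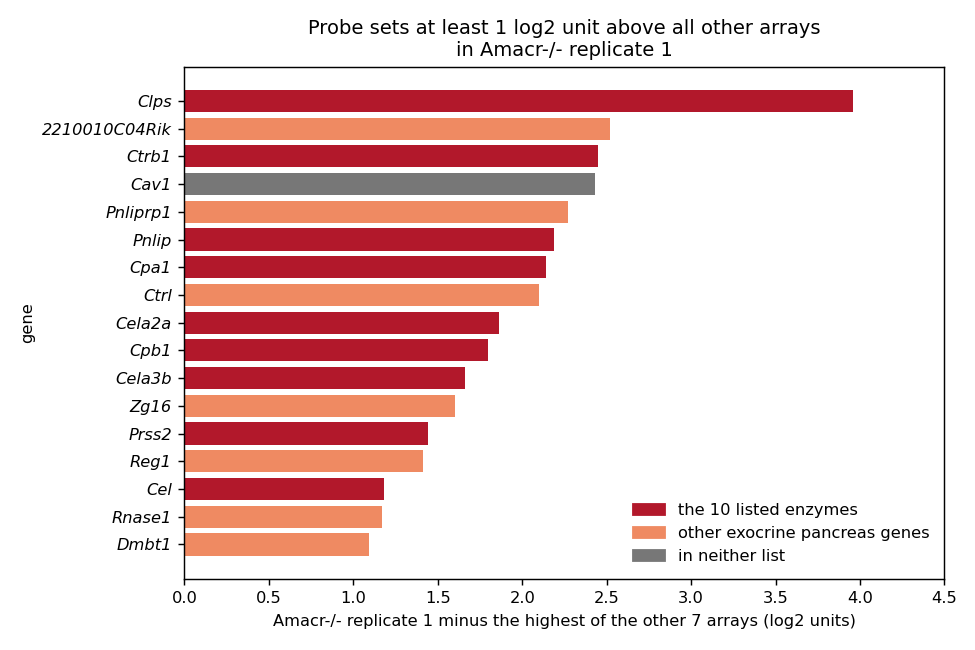
Margin of Amacr-/- replicate 1 over the highest of the other 7 arrays, in log2 units (horizontal axis), for the 17 probe sets with a margin of at least 1 (vertical axis), coloured by gene list. The listed enzymes and other exocrine pancreas genes make up 16 of the 17 bars, from 1.09 for Dmbt1 to 3.96 for Clps. Both lists were chosen with earlier results of these data known.

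The further list held 39 exocrine pancreas genes, of which 31 had a probe set. It too was chosen with earlier results of these data known, so its counts are a description and no test. Amacr-/- replicate 1 was the highest array for 17 of the 31, where it was highest for 7.81% of all probe sets. In the limma fit 0 of the 31 passed an adjusted p of 0.05, and their median difference was 0.17, beside 0.02 over all probe sets. An unadjusted p under 0.05 was found for 5 of the 31 (Amy1, Dmbt1, Erp27, Pdia2 and Ptf1a) and for 11.3% of all probe sets. The groups did not overlap for 2 of the 31, Ptf1a and Pdia2, both higher in Amacr-/- arrays, as were 3.42% of all probe sets, with differences of 0.21 and 0.17; all but Dmbt1 were named after their values were seen.

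The 7 further genes past the margin were mostly secreted products. The gene 2210010C04Rik was 8.44 in Amacr-/- replicate 1, against 5.43 to 5.92 in the other 7 arrays. Pnliprp1, a relative of pancreatic lipase, was 6.52 there, against 3.86 to 4.25 elsewhere. Ctrl, a chymotrypsin-like protease, was 7.61, against 5.03 to 5.51. In each of the 3 the remaining Amacr-/- arrays overlapped with wild type, although for 2210010C04Rik replicates 3 and 4 lay above all wild-type arrays.

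Zg16, a protein of the zymogen granule, was 7.26 in Amacr-/- replicate 1, against 5.46 to 5.66 in the other arrays. Reg1, a secreted lectin of acinar cells, was 6.67, against 4.67 to 5.26. Rnase1, the pancreatic ribonuclease, was 6.73, against 4.93 to 5.56. For Reg1 and Rnase1, Amacr-/- replicates 3 and 4 also lay above every wild-type array. Their margins over the highest other array were 1.60 for Zg16, 1.41 for Reg1 and 1.17 for Rnase1.

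Dmbt1, a mucosal scavenger protein made in pancreas and other epithelia, was 6.39, 3.97, 4.46 and 5.30 in Amacr-/- replicates 1 to 4 and 4.06, 3.85, 3.90 and 3.88 in wild-type replicates 1 to 4. Replicates 3 and 4 of Amacr-/- also lay above all wild-type arrays, and replicate 2 among them. Syncollin, encoded by Sycn and bound to zymogen granules, was 6.79 in Amacr-/- replicate 1 against 5.78 to 6.06 elsewhere, a margin of 0.73, and its replicates 3 and 4 too lay above every wild-type array.

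Other genes of the list did not follow. Spink1, a trypsin inhibitor, was 6.80, 8.71, 6.10 and 6.14 in Amacr-/- replicates 1 to 4 and 5.85, 5.85, 6.70 and 6.25 in wild-type replicates 1 to 4, so its highest array was replicate 2. Amy1, an amylase that mouse liver also makes and that has close copies in the genome, was 12.01 in Amacr-/- replicate 1, within the 11.88 to 12.44 of the other arrays. The acinar regulators Ptf1a, Rbpjl and Bhlha15 differed little in Amacr-/- replicate 1 from the highest other array, by -0.05, -0.12 and 0.02. Their values lay below every array median. Nr5a2, another regulator in the list, differed there by -0.79, its 10.07 lying within the 9.90 to 10.86 of the other arrays. The chymotrypsin Ctrc lay 0.11 below the highest of the other arrays there.

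Markers of other cells near or in the pancreas were measured in the same array. None of 16 islet markers exceeded the highest other array by more than 0.03, and none of 9 markers of bile and pancreas ducts by more than 0.12. The 10 stomach markers and 7 adipocyte markers all lay below the highest other array, by at least 0.08 and 0.07. Of 12 intestine markers only Zg16, which is also an exocrine pancreas gene, was above all other arrays. Among 11 lymphocyte and spleen markers the largest margin was 0.10, and among 12 hepatocyte markers 0.05. Photoreceptor and sperm genes, 20 in all and not known from liver, had margins from -1.11 to 0.08. Without detection calls, a flat marker does not show that its cells were absent.

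As list medians relative to the wild-type mean, the 10 enzymes were at 2.23, -0.19, 0.18 and 0.09 in Amacr-/- replicates 1 to 4, against -0.04 to 0.07 in wild-type arrays. The further exocrine list was at 0.33, -0.12, 0.17 and 0.19 in Amacr-/- replicates 1 to 4, against -0.07 to 0.05 in wild-type arrays. Duct markers were at 0.23 in Amacr-/- replicate 1 and 0.37 in replicate 2, against -0.06 to 0.09 in wild-type arrays. Lymphocyte and spleen markers were at 0.17 in Amacr-/- replicate 1, below the 0.20 of wild-type replicate 4. In the limma fit 0 genes of the marker lists passed an adjusted p of 0.05, and 4 had an unadjusted p under 0.05: the islet gene Pcsk1, the duct genes Muc1 and Slc4a4, and 1 photoreceptor gene. That unadjusted p was met by 11.3% of all probe sets, so nothing is read from these 4. The part of such cells in the enzyme signal was not tested.

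**Figure D4:**
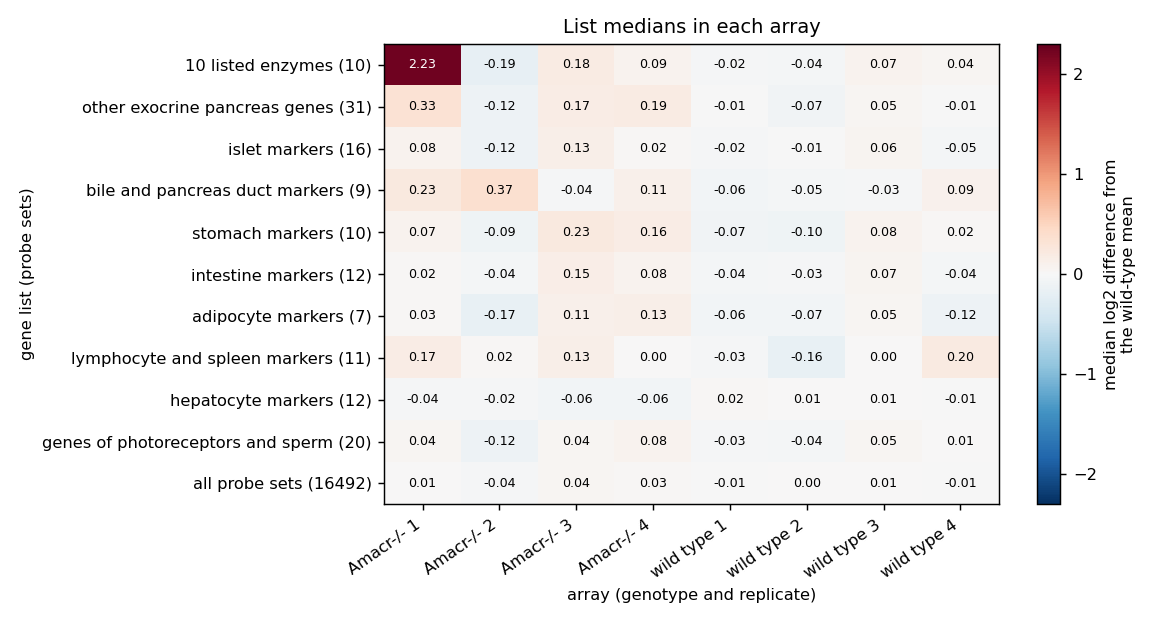
Median over each gene list (rows, number of probe sets in brackets) of the log2 difference from the wild-type mean, in each array (columns, Amacr-/- then wild type). The cell of the 10 enzymes in Amacr-/- replicate 1 is at 2.23, while the other marker lists in that array lie between -0.04 and 0.33.

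The genes of largest span in the other marker lists had their highest values in other arrays. Tff3, an intestinal trefoil factor, was highest in Amacr-/- replicate 2, at 10.10. Ighm, an antibody heavy chain, spanned 2.86 and was highest there too, at 9.79, as was Spp1 (osteopontin), at 12.10. Tat, a hepatocyte enzyme, was lowest in Amacr-/- replicate 1, at 12.69, and spanned 0.81, and the islet convertase Pcsk1 0.79. Cfd (adipsin) spanned 1.22, and Gkn1 and Gkn2 of the stomach 0.57 each.

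By likeness to the mean profile of the 10 enzymes, measured as Pearson's r over the 8 arrays among 1310 named genes with a span of at least 1, the 12 nearest genes held 8 of the further exocrine list. Since that list was chosen with earlier results of these data known, its share is no test. The nearest were 2210010C04Rik (r = 0.995, Spearman's rho 0.905), Pnliprp1 (r = 0.992, rho 0.619) and Zg16 (r = 0.992, rho 0.762), followed by Ctrl, Reg1, Cav1, Sycn, Rnase1 and Dmbt1. The other 3 were Serpinb1a (r = 0.834), Tpm2 (r = 0.799) and Cyp3a44 (r = 0.759). These r values rest on Amacr-/- replicate 1: without it and Amacr-/- replicate 2, the arrays farthest from the median, r was 0.723 for 2210010C04Rik, 0.132 for Pnliprp1 and 0.733 for Zg16.

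Cav1, which encodes the coat protein of caveolae and is abundant in adipocytes and endothelium, was the one gene in neither list to pass the margin. It was 10.33, 7.33, 7.90 and 7.58 in Amacr-/- replicates 1 to 4 and 7.33, 7.17, 7.13 and 7.08 in wild-type replicates 1 to 4. Replicates 3 and 4 of Amacr-/- lay above all wild-type arrays, and replicate 2 equalled the highest of them. Its partner Cav2 was 7.10 in Amacr-/- replicate 1, within the 6.24 to 7.18 of the other arrays.

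Genes beside the enzymes in the genome did not share the pattern. The nearest measured protein-coding gene on either side of the 9 enzymes, by RefSeq order and leaving out other exocrine genes, gave 18 neighbours. Amacr-/- replicate 1 was the highest array for 1 of the 18, Cpa3, by 0.04. The other 17 lay below the highest of the other arrays, by up to 0.90 for Efhd2 beside Cela2a. Cpa5, which adjoins Cpa1 and encodes another carboxypeptidase, lay 0.02 below.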

How the data were processed

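Total RNA of 8 livers, 4 per genotype, was hybridised to arrays after biotin labelling, per the labels. The deposited values are log2 signals, 1 per probe set and array, written with 2 decimals; per the submitters' processing notes the authors used RMA (no version stated). The array type, any filter and any batch step are not given in the sources used here. Depth has no counterpart on arrays: the number of arrays limits precision, and the table held no detection calls.

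Of 16556 probe sets, 64 array controls were left out. GEO's platform annotation named 15270 probe sets, and for 15250 of these the probe set ID was the Entrez gene number. On that ground 988 further probe sets, that of Pnlip among them, were named by number through the RefSeq gene table (GRCm38.p6), leaving 234 without a name.

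The genotype test was limma (3.58.1, under R 4.3.3), two-sided, with no term but genotype and no variance trend, with Benjamini-Hochberg adjustment over 16492 probe sets; the steps were tested on simulated data. The members and lists were chosen with earlier results of these data known. Besides the members and Amacr, genes were named by span over the arrays (at least 1 log2 unit in the further exocrine list, the largest in each other marker list) and by likeness to the members' mean profile; others were named after their values were seen, and 1 gene is not reported here. Alternatives left out each array, or changed normalization, filter, variance model, array weights, pairing and controls.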

Additional observations from a re-analysis of the deposited data

Results flagged for a closer look

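In groups of 4 arrays, a sample was singled out where its gap to the nearest other sample exceeded the critical share of Dixon's test in the group's range. Of 100 groups, from 50 of the named genes in both genotypes, 16 held such a sample. Chance singles out about 1 in 20 groups of genes not picked for their values, but most of these genes were listed or named with the values of these arrays in view, so the count is no test of the pattern and the shares below only describe it. In Amacr-/- replicate 1 the share of the range was 0.904 for Clps, 0.884 for Cela2a, 0.857 for Ctrb1 and 0.855 for Pnlip. In the same array it was 0.917 for Pnliprp1, 0.899 for Zg16 and 0.837 for 2210010C04Rik, and, outside the exocrine lists, 0.857 for Gadd45g and 0.851 for Adh4. The other enzymes highest in that array came close or fell short, with 0.820 for Cpa1 and 0.562 for Cel.

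Amacr-/- replicate 2 was lower than the other Amacr-/- arrays for Bhlha15 (0.912) and Cpa3 (0.881).

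Wild-type arrays were singled out for 5 genes. Amacr was lower in wild-type replicate 4, at 11.68, where the remaining wild-type livers had 12.03 to 12.06 (0.921). Pnlip was lower in wild-type replicate 3 (0.900), within a wild-type range of only 0.10. Pcsk1 (0.882) and Gkn1 (0.857) were lower in wild-type replicate 1, as was Ugt2b38 (0.899).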

How the results depend on the processing

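Of the 10 enzymes, 0 passed the threshold in each of the 15 alternatives, of which the filter on low signals retained 1, Cela1. The median difference of the enzymes was 0.010 without Amacr-/- replicate 1 and 0.885 without Amacr-/- replicate 2. With only probe sets above the median signal it was -0.465, because Cela1 alone was left. The count of probe sets past the threshold, 19, moved widely. It ran from 2 (without wild-type replicate 1) to 39 (without Amacr-/- replicate 2) when single arrays were left out, each of the 8 moving it over 1.5-fold, and was 1 with replicate number as a block, 38 after a second quantile normalization and 36 with a robust variance trend. It was 53 among brighter probe sets and 75 with array weights. Same-numbered arrays did not deviate together (correlations from -0.115 to 0.092, 2 of 4 pairs best with their own number), so the numbers give no pairing. With a margin of 0.5, chosen after seeing the data, 26 in place of 17 probe sets were singular to Amacr-/- replicate 1, with the same 9 enzymes counted.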

Other observations

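Between 0.5 and 1 log2 unit above all other arrays, Amacr-/- replicate 1 held 9 further probe sets, of which 1, Sycn, was an exocrine pancreas gene. Apart from Serpinb1a and Cyp3a44, the others were named after their values were seen. Adh4, an alcohol dehydrogenase, was 12.10 there, against 11.23 to 11.51 in the other arrays. Gadd45g, a stress-induced gene, was 10.49, against 6.66 to 9.72, and Ugt2b38, a glucuronosyltransferase, was 10.02, against 5.48 to 9.45. Clec2h was 9.97, against 7.11 to 9.07.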
